A study of Danio rerio with 24 samples.

Results

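The livers of zebrafish kept in rotenone, an inhibitor of mitochondrial complex I, were compared for 5 genes linked to the ATF4 branch of the stress response, out of 32105 gene rows counted. The genes were atf4b (ENSDARG00000038141), ALDH1L2 (ENSDARG00000070230), TARS1 (ENSDARG00000013250), LARS1 (ENSDARG00000019280) and sesn2 (ENSDARG00000070012), and each symbol belonged to 1 gene row. They were picked by identifier as a set with earlier results of these livers known. The choice does not state which values it used, so the dose and age differences of these genes are given as descriptions. Where calls of them are reported, nothing is read from the calls. RNA of whole livers was sequenced from 24 male fish of strain AB JxTu, 1 library per fish. There were 6 fish of 3 years at 37.5 nM rotenone, 9 fish of 1 year at 37.5 nM and 9 fish of 1 year at 3.75 nM. All 6 of the 3-year fish also carried the transgene Tg(flk:mCherry), so age and transgene cannot be told apart. No fish was labelled as untreated, and the length of exposure is not given in the sources used here. Fish numbers fell into a lower-numbered series, 163 to 181, with 2, 4 and 4 fish of these groups in the same order, and a higher-numbered series, 189 to 202, with 4, 5 and 5. The labels do not say what separates the series. Counts of the fish at 3.75 nM were deposited apart from those of both groups at 37.5 nM, so dose and any difference in how the tables were made cannot be told apart.

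ATF4 is a transcription factor whose translation is favoured when the initiation factor eIF2 alpha is phosphorylated, as happens under amino acid shortage, unfolded protein or mitochondrial stress. Its known targets in mammals include enzymes that make and take up amino acids, the tRNA synthetases that load amino acids onto their tRNAs, and mitochondrial folate enzymes. In mammals sestrin 2 senses leucine and restrains the growth kinase complex mTORC1, and its message is also an ATF4 target. Because ATF4 is controlled largely at translation, the level of its own message and that of its targets are separate measurements.

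Libraries held 24644663 to 45297644 counts. Levels are CPM, counts scaled to library size with TMM factors over the 24 libraries, and they are not corrected for length, so levels of different genes are not compared. All 12 hepatocyte marker genes had counts in every fish, and their summed level spanned 109000 to 178000 CPM in the 3-year fish, 87100 to 242000 CPM in the 1-year fish at 37.5 nM and 81700 to 189000 CPM at 3.75 nM. Summed markers of the exocrine pancreas spanned 165 to 7470 CPM, 156 to 11900 CPM and 53.5 to 19500 CPM in the same groups, and those of the intestine 410 to 4810 CPM, 1910 to 35600 CPM and 814 to 13200 CPM. In bulk liver RNA, fewer cells of a type and less RNA per cell cannot be told apart. Nothing says that fish came from separate tanks, so p-values measure the spread between these fish.

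In 1-year livers at 37.5 nM, ALDH1L2, TARS1 and LARS1 stood well below their level at 3.75 nM, sesn2 stood somewhat below it, and atf4b was about level. The log2 differences (37.5 nM minus 3.75 nM, 9 fish each) were -2.16 ± 0.39 (SE) for ALDH1L2, -1.50 ± 0.28 for TARS1, -1.26 ± 0.20 for LARS1, -0.54 ± 0.18 for sesn2 and 0.02 ± 0.15 for atf4b. Across all genes, edgeR's quasi-likelihood test with Benjamini-Hochberg adjustment called 11.4% of those tested: 3.19% rose and 8.19% fell. ALDH1L2, TARS1 and LARS1 were among them. sesn2 was not, nor was it with RLE, upper-quartile or library-size scaling, with no filter, or in the higher-numbered series alone. Of 18 fits that left out 1 fish, 3 called it. With the number series as a covariate it was called, among 2367 of 17217 genes. It was also called by DESeq2, among 2706 of 15465, and in the lower-numbered series alone, among 5291 of 15199. Nothing is read from these calls, since the genes were chosen with this comparison known.

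ALDH1L2 encodes the mitochondrial enzyme that oxidises 10-formyl-tetrahydrofolate and yields NADPH. At 1 year and 37.5 nM its level was 1.68, 1.63, 3.17 and 2.72 CPM in the lower-numbered fish and 2.62, 1.23, 2.51, 1.45 and 1.91 CPM in the higher-numbered fish. At 3.75 nM it was 17.3, 15.1, 18.2 and 15.2 CPM in the lower-numbered fish and 9.70, 5.09, 3.51, 2.43 and 2.57 CPM in the higher-numbered fish. The lower-numbered fish at 3.75 nM formed a tight group above every other fish. Of the other 5 fish at that dose, 2 lay within the span of the 1-year fish at 37.5 nM. Means were 2.10 ± 0.667 CPM at 37.5 nM and 9.90 ± 6.64 CPM at 3.75 nM (SD, n = 9 each).

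TARS1 encodes the cytosolic threonyl-tRNA synthetase. Its level at 1 year and 37.5 nM was 27.6, 20.5, 22.1 and 29.4 CPM in the lower-numbered fish and 20.7, 11.6, 18.7, 17.2 and 17.4 CPM in the higher-numbered fish. At 3.75 nM the lower-numbered fish had 103, 83.3, 87.7 and 89.1 CPM and the higher-numbered fish 55.3, 53.6, 28.5, 17.1 and 31.8 CPM. The doses did not overlap in the lower-numbered series. In the higher-numbered series all fish at 3.75 nM but 1 lay above every 1-year fish of that series at 37.5 nM, with 2 of them highest. The 1 fish, at 17.1 CPM, lay among those at 37.5 nM.

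LARS1 encodes the cytosolic leucyl-tRNA synthetase, the enzyme that also reports leucine to mTORC1 in mammalian cells. At 1 year and 37.5 nM its level was 18.9, 16.3, 15.9 and 18.8 CPM in the lower-numbered fish and 19.2, 14.8, 12.2, 14.6 and 19.2 CPM in the higher-numbered fish, so the 9 fish stayed within a narrow band. At 3.75 nM it was 64.6, 51.4, 58.3 and 60.2 CPM in the lower-numbered fish and 33.4, 30.6, 29.4, 17.7 and 28.0 CPM in the higher-numbered fish. All fish at 3.75 nM but the one at 17.7 CPM lay above every fish at 37.5 nM. Another gene row is also annotated as a leucyl-tRNA synthetase, lars1a (ENSDARG00000090988), and was added after its values were seen. Its level averaged 3.26 ± 0.672 CPM at 37.5 nM and 8.91 ± 3.86 CPM at 3.75 nM (SD, n = 9 each). Whether the counting split reads between LARS1 and lars1a is not stated, so the level of each row is uncertain.

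sesn2 encodes sestrin 2. At 1 year and 37.5 nM its level was 2.74, 2.70, 2.81 and 4.02 CPM in the lower-numbered fish and 3.35, 2.94, 3.50, 2.87 and 2.12 CPM in the higher-numbered fish. At 3.75 nM it was 6.54, 6.71, 5.29 and 5.23 CPM in the lower-numbered fish and 3.50, 4.65, 3.00, 3.65 and 2.46 CPM in the higher-numbered fish. The doses were apart in the lower-numbered fish and overlapped in the higher-numbered fish.

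atf4b encodes one of the zebrafish counterparts of ATF4. No further row was matched under the name of its partner atf4a, so that message was not analysed here. In 1-year fish the level of atf4b spanned 144 to 266 CPM at 37.5 nM, with a median of 197 CPM, and 163 to 283 CPM at 3.75 nM, with a median of 188 CPM. The doses overlapped in both series. Its mean was 201 ± 46.1 CPM at 37.5 nM and 203 ± 41.4 CPM at 3.75 nM (SD, n = 9 each).

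**Figure D1:**
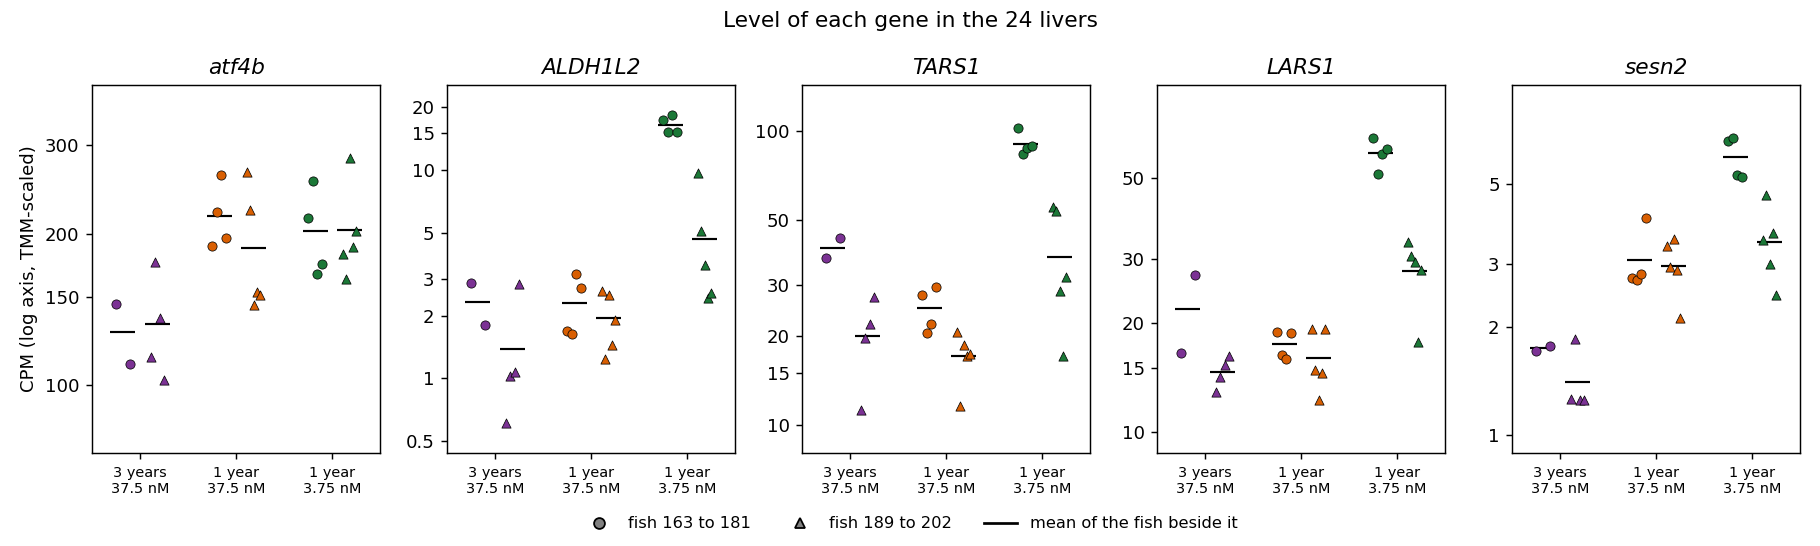
Level of each gene in every liver, in CPM on a log axis, by group. Circles are fish 163 to 181, triangles fish 189 to 202, and bars their means. For ALDH1L2, TARS1, LARS1 and sesn2 the 4 lower-numbered fish at 3.75 nM stand above the 5 higher-numbered fish of the same dose, and for atf4b they do not.

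The dose difference of 4 of the 5 genes was larger in the lower-numbered series. For LARS1 alone the test of that inequality passed over all 18 fish, and it was lost when any of 12 fish was left out. Within the lower-numbered fish alone (4 against 4), the log2 difference was -2.73 ± 0.24 for ALDH1L2, -1.75 ± 0.14 for TARS1, -1.63 ± 0.11 for LARS1 and -0.84 ± 0.18 for sesn2. Within the higher-numbered fish alone (5 against 5), it was -1.21 ± 0.41, -1.08 ± 0.31, -0.76 ± 0.20 and -0.19 ± 0.22 for the same genes in that order. For each of these 4 genes the doses did not overlap in the lower-numbered series, with 37.5 nM the lower, a pattern shown by 20.3% of all genes tested. None of the 5 genes separated the doses completely in the higher-numbered series, where 1.08% of genes did so in that direction, nor over all 18 fish, where 0.155% did.

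The interaction of dose and series compares these differences directly (lower-numbered minus higher-numbered) and called 6.33% of genes, 1.76% with a negative sign. The same fish give the dose differences, which may have entered the choice of the genes. The interaction values of the 5 genes therefore do not stand apart from that choice. For LARS1 the interaction was -0.80 ± 0.23 on the log2 scale, with an edgeR adjusted p of 0.0486. With 1 fish left out at a time, the call held without fish 173, 177 or 200 at 37.5 nM and without fish 165, 189 or 190 at 3.75 nM. Without any 1 of the others the adjusted p was between 0.0515 and 0.083. The interaction of ALDH1L2 was -1.45 ± 0.51, with an edgeR adjusted p of 0.1, and without fish 189 it was called, at -1.89 with 0.00697. It was -0.60 ± 0.37 for TARS1, with an edgeR adjusted p of 0.364, -0.60 ± 0.29 for sesn2, with 0.238, and 0.36 ± 0.31 for atf4b, with 0.533.

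**Figure D2:**
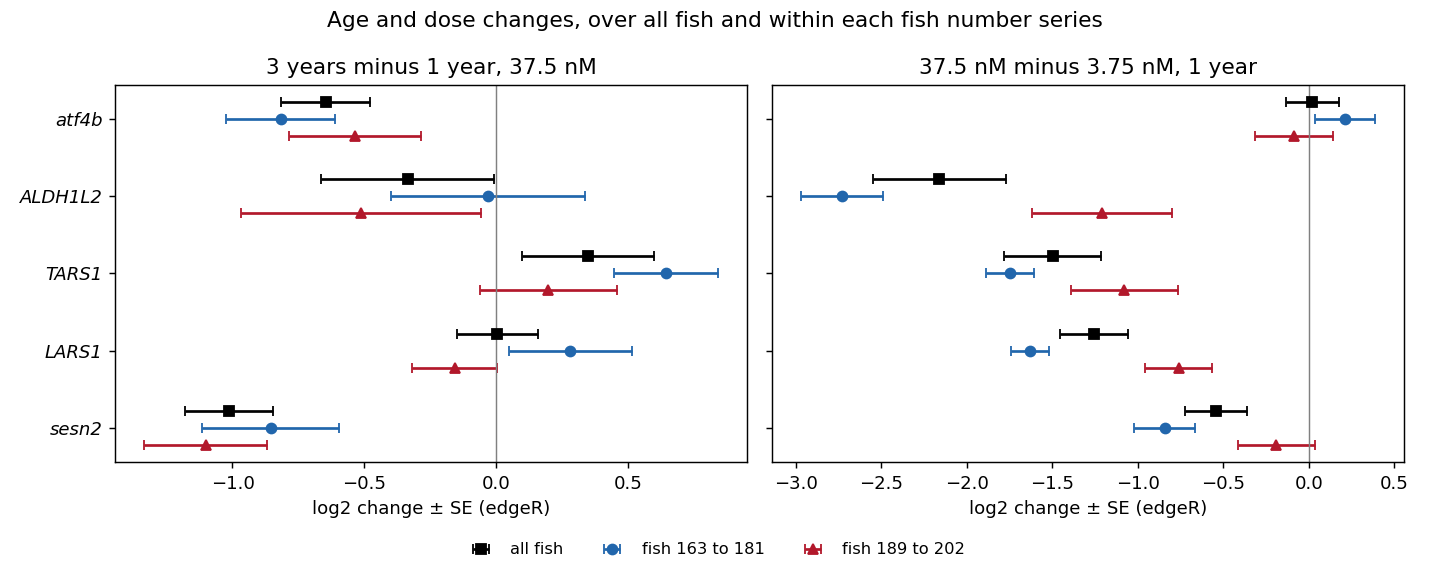
Differences in log2 level with their SE from edgeR, for age at 37.5 nM (left) and dose at 1 year (right), over all fish (squares), fish 163 to 181 (circles) and fish 189 to 202 (triangles). The dose differences of ALDH1L2, TARS1, LARS1 and sesn2 lie further below 0 in fish 163 to 181, where they are -2.73, -1.75, -1.63 and -0.84.

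Set against each other within 1 dose, the series differed at 3.75 nM. There ALDH1L2, TARS1 and LARS1 were higher in the lower-numbered fish, with 3 of the 5 genes called where edgeR called 11.9% of all genes, 6.66% of them as higher. The same fish at 3.75 nM enter the dose difference, so these values do not stand apart from it. The log2 difference between series (4 against 5 fish) was 1.74 ± 0.39 for ALDH1L2, with an edgeR adjusted p of 0.0267. For TARS1 it was 1.19 ± 0.31, with an edgeR adjusted p of 0.0399, and for LARS1 it was 0.98 ± 0.18, with 0.0192. That of sesn2 was 0.69 ± 0.21, with an edgeR adjusted p of 0.0628, and that of atf4b was -0.10 ± 0.22, with 0.781. In each of ALDH1L2, TARS1, LARS1 and sesn2 all 4 lower-numbered fish lay above all 5 higher-numbered fish, which 11.3% of genes did.

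The 3 calls changed with single fish. ALDH1L2 and TARS1 kept theirs only without fish 189 or 190, and with any of the other 7 fish left out the adjusted p lay between 0.0504 and 0.107. LARS1 lost its call without fish 163, 166 or 167, with adjusted p-values of 0.061, 0.0601 and 0.0731. At 37.5 nM none of the 5 genes was called between the series of 1-year fish. Over all genes edgeR called 5 of 15958 genes, or 0.0313%, while 3266 had an unadjusted p under 0.05 and DESeq2 called 1641. The log2 difference there (4 against 5 fish) was 0.20 for ALDH1L2, 0.51 ± 0.19 for TARS1, 0.10 for LARS1, 0.02 for sesn2 and 0.18 for atf4b, and the edgeR adjusted p-values ran from 0.191 to 0.969. TARS1 had an unadjusted p of 0.0243 in the edgeR fit, with 3 of the 4 lower-numbered fish above all 5 higher-numbered fish.

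Of the pancreas markers, the endocrine sum was higher in the lower-numbered fish at 3.75 nM, in which ALDH1L2, TARS1, LARS1 and sesn2 were high. The exocrine sum overlapped between the series at that dose, with the higher median in the lower-numbered fish. Summed endocrine pancreas markers, 4 gene rows with the insulin row ins the highest and glucagon, gcga, next, stood at 80.7 to 557 CPM in the lower-numbered fish at 3.75 nM and at 0.147 to 36.9 CPM in the higher-numbered fish. One of the 4 rows, insb, had no count in any fish at 3.75 nM. The exocrine pancreas sum spanned 2510 to 15100 CPM (median 13500) in the lower-numbered fish and 53.5 to 19500 CPM (median 1140) in the higher-numbered fish at that dose. Over all 24 fish, Pearson's r of group-centred log2 levels was computed for each sum. For the endocrine sum it was 0.58 with ALDH1L2, 0.44 with TARS1, 0.55 with LARS1 and 0.47 with sesn2. For the exocrine sum it was 0.40, 0.23, 0.27 and 0.38 in the same order. These values were not centred on number series. The part of the pancreas markers in the result was not tested. Among the 1-year fish at 37.5 nM, fish 198 had the highest pancreas marker sums, 334 CPM endocrine and 11900 CPM exocrine. Its level was 2.62 CPM of ALDH1L2 and 20.7 CPM of TARS1, inside the span of its group, and 19.2 CPM of LARS1, at the top of that span. Among the 5 higher-numbered fish of that group it was the highest in ALDH1L2 and TARS1. Fish 200 came next, with 2.51 and 18.7 CPM. These are levels of single fish, and nothing is read from them. Red cell markers were also unequal between doses, with summed levels of 76.3 to 586 CPM at 37.5 nM and 53.2 to 130 CPM at 3.75 nM.

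Without the 6 libraries of 1-year fish over 10000 CPM of exocrine pancreas markers, a rule set after the data were seen, the dose differences were -1.60 for ALDH1L2, -1.05 for TARS1, -0.99 for LARS1 and -0.21 for sesn2. That step removed 3 of the 4 lower-numbered fish at 3.75 nM, and edgeR then called 0 genes for dose, with 1690 at an unadjusted p under 0.05.

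At 37.5 nM, sesn2 and atf4b were lower in the 3-year livers than in the 1-year livers. Over both series together, ALDH1L2, TARS1 and LARS1 were close to their 1-year level. The log2 differences (3 years minus 1 year, 6 against 9 fish) were -1.01 ± 0.17 (SE) for sesn2, -0.65 ± 0.17 for atf4b, -0.34 ± 0.33 for ALDH1L2, 0.35 ± 0.25 for TARS1 and 0.01 ± 0.16 for LARS1. Within the lower-numbered series that of TARS1 was 0.64 ± 0.20, with both 3-year fish above all 4 of the 1-year fish. Within the higher-numbered series it was 0.20 ± 0.26. Across all genes edgeR called 1.72%, with 0.897% that rose and 0.823% that fell. Of the 5 genes sesn2 was called, as lower. atf4b was not, but DESeq2 called it as lower, among 1196 of 16159 genes. It was also called as lower with library-size scaling, among 249 of 16159, and in 3 of 15 fits that left out 1 fish. With RLE or upper-quartile scaling, no filter or the number series as a covariate, atf4b was not called. Within the lower-numbered or the higher-numbered series alone neither sesn2 nor atf4b was called, where 13 and 30 genes were. These calls are again description because the age values may have entered the choice. The age and dose differences share the 9 fish of 1 year at 37.5 nM.

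sesn2 stood at 1.72 and 1.77 CPM in the lower-numbered and 1.26, 1.86, 1.25 and 1.25 CPM in the higher-numbered 3-year fish, against 2.12 to 4.02 CPM, with a median of 2.87 CPM, in the 1-year fish at 37.5 nM. All 6 of the 3-year fish lay below all 9 of the 1-year fish, as they did for 0.52% of genes. They also lay below all 9 fish at 3.75 nM, whose lowest level was 2.46 CPM, a pattern of 1.17% of genes. The counts behind these levels were small, between 41 and 74 per 3-year library.

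The 3-year fish had 145 and 110 CPM of atf4b in the lower-numbered and 114, 176, 136 and 103 CPM in the higher-numbered series, against 144 to 266 CPM in the 1-year fish at 37.5 nM. Of the 6, 4 lay below every 1-year fish at that dose and 2 fell within their span. The log2 difference was -0.82 ± 0.21 within the lower-numbered series and -0.53 ± 0.25 within the higher-numbered series, and these were not tested against each other.

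Among the 3-year fish, the lower-numbered ones had the higher synthetase levels. TARS1 was at 37.0 and 43.1 CPM in the lower-numbered 3-year fish and at 11.2, 19.8, 22.1 and 27.2 CPM in the higher-numbered ones. LARS1 was at 16.5 and 27.1 CPM in the lower-numbered 3-year fish and at 12.9, 14.2, 15.3 and 16.2 CPM in the higher-numbered ones. For both genes the 2 lower-numbered fish lay above the other 4, as they did for 10.1% of genes. ALDH1L2 was at 2.86 and 1.8 CPM in the lower-numbered and at 0.615, 1.03, 1.08 and 2.85 CPM in the higher-numbered 3-year fish, a span that overlapped that of 1-year fish at the same dose.

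The order of the groups differed between genes. The means of sesn2 were 1.52 ± 0.292 CPM in 3-year fish (n = 6), 3.01 ± 0.548 CPM in 1-year fish at 37.5 nM and 4.56 ± 1.52 CPM at 3.75 nM (SD, n = 9 each), with overlap between both groups of 1-year fish. The 3-year and 1-year fish at 37.5 nM averaged 17.0 ± 5.10 CPM and 16.6 ± 2.5 CPM of LARS1, against 41.5 ± 17.1 CPM at 3.75 nM. TARS1 averaged 26.7 ± 11.7 CPM and 20.6 ± 5.42 CPM at 37.5 nM in the 3-year and 1-year fish, against 61.0 ± 30.9 CPM at 3.75 nM. Over both series together, the 2 groups at 37.5 nM overlapped in both synthetases, and in the lower-numbered series they did not overlap in TARS1.

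From fish to fish, ALDH1L2, TARS1 and LARS1 varied together over the pooled fish, most closely at 3.75 nM. After each fish was centred on its group, Pearson's r of log2 CPM over the 24 fish was 0.88 between ALDH1L2 and TARS1, 0.87 between TARS1 and LARS1 and 0.77 between ALDH1L2 and LARS1. For these pairs in the same order, r was 0.83, 0.82 and 0.47 within the 6 fish of 3 years, 0.58, 0.49 and 0.14 within the 9 fish of 1 year at 37.5 nM, and 0.95, 0.96 and 0.93 within the 9 fish at 3.75 nM. With sesn2 these genes had r of 0.67, 0.66 and 0.58 in the order ALDH1L2, TARS1, LARS1. The r of atf4b with the other 4 genes lay between -0.07 and 0.10. Values of 1 fish share a library, its depth and its tissue makeup, so these are descriptions. Centred on both group and number series, r fell to 0.75 between ALDH1L2 and TARS1, 0.68 between TARS1 and LARS1 and 0.34 between ALDH1L2 and LARS1. With sesn2, r was then 0.23, 0.26 and -0.12 in the order ALDH1L2, TARS1, LARS1.

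**Figure D3:**
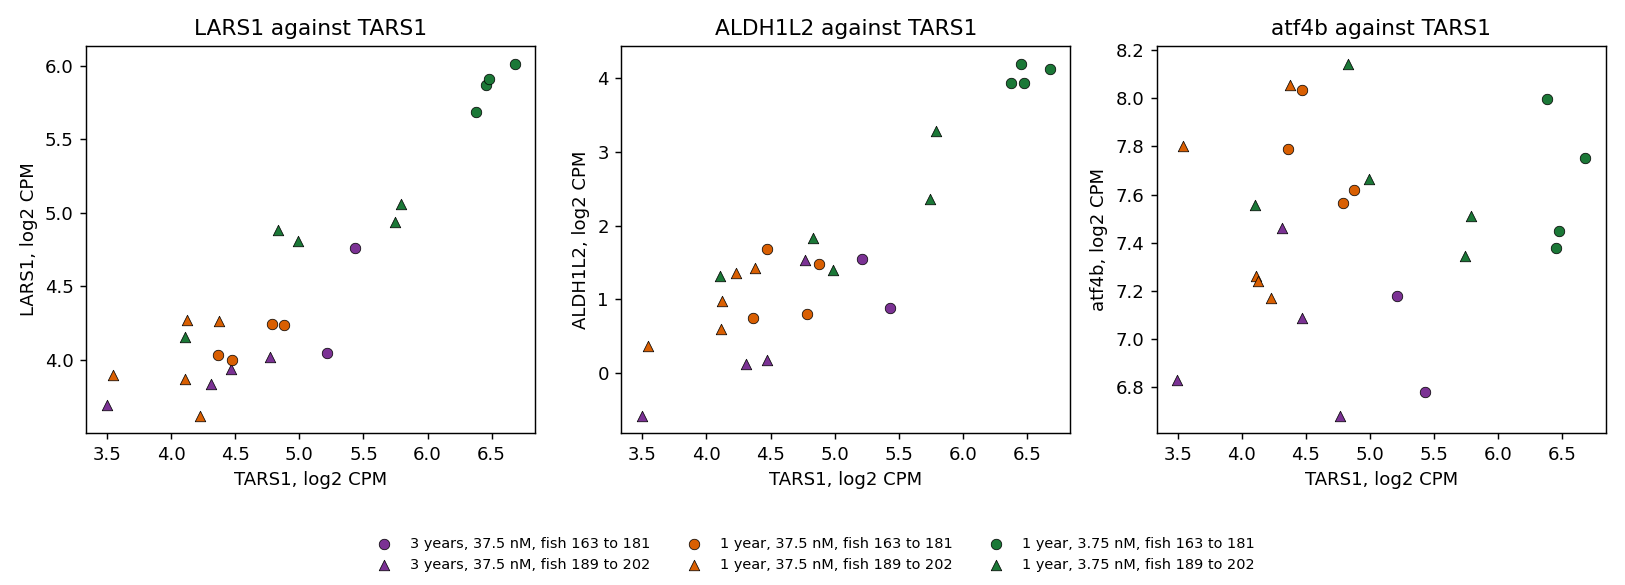
LARS1, ALDH1L2 and atf4b against TARS1, in log2 CPM, with 1 point per liver, coloured by group and shaped by number series. LARS1 and ALDH1L2 line up with TARS1 (r of 0.87 and 0.88 after centring on group), with the 4 lower-numbered fish at 3.75 nM at the upper right, and atf4b does not (r of -0.07).

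Among 9629 genes with a mean of at least 4 CPM, those with the most similar group-centred pattern over the 24 fish were named for each gene. For LARS1 the closest was the other leucyl-tRNA synthetase row, lars1a, with r of 0.96, then the importin ipo4 with 0.92 and the ribosome-associated ATPase ABCF1 with 0.92. For TARS1 they were ABCF1, the outer-membrane translocase gene tomm40l and the ribosome rescue factor PELO, each with r of 0.95. For ALDH1L2 they were ccdc51 with 0.92, the RNA-binding LSM6 with 0.91 and eif4e2rs1 with 0.89. For sesn2 they included TMEM33 and ylpm1, each with r of 0.83. For atf4b they were VTN, the plasma protein vitronectin, with 0.75, HAGH, a glyoxalase, with 0.74, and SEC62, of the protein translocation pore, with 0.74. Centred on both group and number series, r of these named genes was lower, between 0.63 for TMEM33 and 0.90 for lars1a.

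The wider pathway was read from 7 gene lists that left out the 5 genes. The lists were chosen with earlier results of these livers known, so their counts are descriptions and give no separate support. The other cytosolic tRNA synthetases and their scaffold proteins were mostly lower at 37.5 nM. Of 20 tested in 1-year fish, 11 fell at 37.5 nM, or 55.0% against 8.19% of all genes, 0 rose and 9 were not called, and the median log2 difference was -0.55, against 0.03 over all genes. The methionyl enzyme MARS1 averaged 18.4 ± 4.02 CPM at 37.5 nM and 38.9 ± 13.0 CPM at 3.75 nM, a log2 difference of -1.02 ± 0.18 with an edgeR adjusted p of 0.00663. The valyl enzyme VARS1 averaged 20.8 ± 4.39 CPM and 44.8 ± 15.1 CPM in the same groups, with -1.05 ± 0.19 and 0.0068. For the glutaminyl enzyme QARS1 the means were 18.5 ± 5.47 CPM at 37.5 nM and 57.5 ± 32.7 CPM at 3.75 nM, with a log2 difference of -1.57 ± 0.31. EEF1E1, a scaffold protein of the synthetase complex, fell by 1.44 on the log2 scale.

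These genes also followed the number series, at both doses. In each fish the group's level is the median, over the 20 genes, of log2 CPM minus the gene's mean. In the lower-numbered 1-year fish it lay between -0.06 and 0.08 at 37.5 nM and between 0.58 and 0.95 at 3.75 nM. In the higher-numbered 1-year fish it lay between -0.51 and -0.34 at 37.5 nM and between -0.41 and 0.27 at 3.75 nM. The lower-numbered fish thus had the higher level at each dose, without overlap. The series differed in 6 of 20 genes at 3.75 nM, all higher in the lower-numbered fish, where 11.9% of all genes were called and 6.66% as higher. At 37.5 nM they differed in 0 of 20, where 0.0313% of all genes were called. There 10 of the 20 had an unadjusted p under 0.05, against 20.5% of all genes. The interaction of dose and series was called by edgeR for 0 of 21 genes, against 6.33% of all genes, with a median of -0.07. Of the 21, 2 had an unadjusted p under 0.05, against 21.7% of all genes. Within the lower-numbered series alone 14 of 20 fell and 1 rose, where 17.5% of all genes fell and 17.3% rose. Within the higher-numbered series 0 of 21 were called by edgeR, as 0 genes were in all, with 1218 at an unadjusted p under 0.05, and the median was -0.45. Without the libraries rich in exocrine pancreas markers 0 were called, and leaving out y1_low replicate 1, 2, 3 or 4 left 5, 7, 6 and 6.

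Enzymes that supply amino acids under ATF4 showed the same direction in fewer genes. Of 23 tested, 5 fell at 37.5 nM, or 21.7% against 8.19% of all genes, and 0 rose, with a median of -0.40. A row named CTH (ENSDARG00000074301), cystathionine gamma-lyase, which shares its symbol with a second row, averaged 78.1 ± 38.1 CPM at 37.5 nM and 259 ± 170 CPM at 3.75 nM, a log2 difference of -1.64 ± 0.38 with an edgeR adjusted p of 0.0122. Asparagine synthetase, ASNS, a classical ATF4 target, averaged 11.1 ± 3.19 CPM and 24.4 ± 12.1 CPM in the same groups, with -1.06 ± 0.26 and 0.0164. The cystathionine synthase CBS and ALDH18A1, which starts proline synthesis, fell by 1.04 and 0.61 on the log2 scale. The fifth was slc7a1a, an amino acid carrier, at -0.85. The count was 3 without y1_low replicate 1 or without replicate 4, and 3 without the libraries over 5000 CPM of intestine markers.

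**Figure D4:**
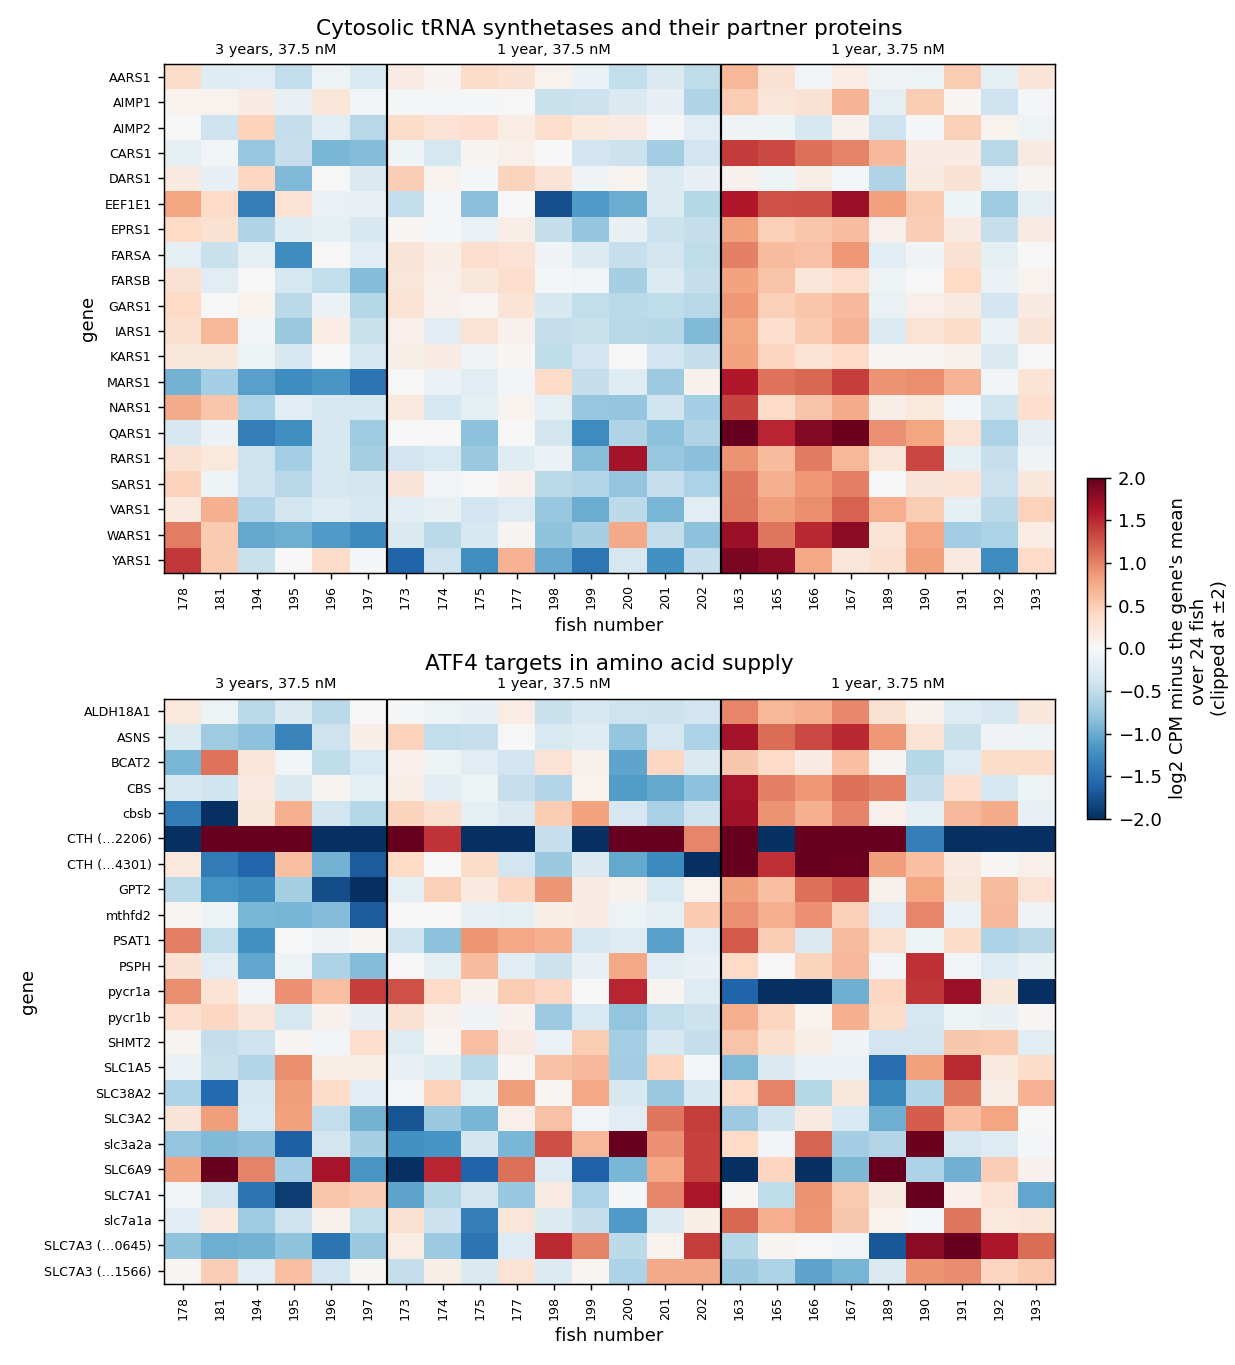
Level of each cytosolic synthetase gene and each amino acid supply gene in every liver, as log2 CPM minus the gene's mean over 24 fish, with red above and blue below that mean. Most rows of the upper block are red in fish 163 to 167 and pale or blue at 37.5 nM. The lower block is mixed, with 5 of 23 genes called as lower at 37.5 nM, against 8.19% of all genes.

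The stress effectors downstream of ATF4 did not share that direction in their median. It was 0.25 over 18 genes tested, against 0.03 over all genes, and the log2 difference was negative in 7. Of the 18, 1 fell, or 5.56% against 8.19% of all genes, and 0 rose, against 3.19%. These shares are near those of all genes, so nothing is read from the count. The gene that fell was XPOT, which exports tRNA from the nucleus, with 22.4 ± 3.00 CPM at 37.5 nM and 46.9 ± 22.6 CPM at 3.75 nM. Its log2 difference was -1.0 ± 0.22, with an edgeR adjusted p of 0.0109. The transcription factor atf5b had a log2 difference of -0.84 ± 0.28, with an edgeR adjusted p of 0.0549. The stress protein nupr1a averaged 25.5 ± 7.17 CPM at 37.5 nM and 10.2 ± 8.57 CPM at 3.75 nM, with 1.32 ± 0.47 and 0.0713, and a row of JDP2 (ENSDARG00000020133) had 0.92 ± 0.37 and 0.112. Another row with that symbol (ENSDARG00000040137) was not tested for dose. The interaction of dose and series was called for 2 of 19 genes of this list, against 6.33% of all genes. They were XPOT at -0.89 and nupr1a at 2.83, with edgeR adjusted p-values of 0.0398 and 0.00433.

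Upstream, among 17 genes of eIF2 alpha signalling, 2 fell and 0 rose, with a median of -0.18. That is 11.8% called, near the 11.4% of all genes. Both encode subunits of eIF2B, the exchange factor that phosphorylated eIF2 alpha inhibits. EIF2B1 averaged 5.08 ± 1.04 CPM at 37.5 nM and 9.99 ± 3.59 CPM at 3.75 nM, with a log2 difference of -0.92 ± 0.20 and an edgeR adjusted p of 0.00962. EIF2B3 fell by 1.1 on the log2 scale. Neither the eIF2 subunit EIF2S2 nor the rows of EIF2S1, a symbol that 2 rows share, were called. EIF2S2 had a log2 difference of -0.44, and the EIF2S1 rows -0.33 (ENSDARG00000005827) and 0.01 (ENSDARG00000052178). The count was 1 when any of 10 of the 18 fish was left out.

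The list of mitochondrial tRNA synthetases and mtfmt had 16 genes tested. Of these 3 fell, or 18.8% against 8.19% of all genes, and 0 rose, with a median of -0.35. The row named HARS2, after the mitochondrial histidyl enzyme, averaged 35.7 ± 8.19 CPM at 37.5 nM and 62.5 ± 21.5 CPM at 3.75 nM. Its log2 difference was -0.75 ± 0.19, with an edgeR adjusted p of 0.0185. No row was matched to the cytosolic histidyl enzyme, hars1, so whether this row stands for the mitochondrial enzyme alone is uncertain. The isoleucyl enzyme IARS2 and the tyrosyl enzyme YARS2 fell by 0.38 and 0.74, and mtfmt, which formylates the initiator methionyl-tRNA, had -0.51 with an adjusted p of 0.0732. The count was 1 when any of 12 of the 18 fish was left out.

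Around ALDH1L2, the folate one-carbon enzymes had 5 of 19 that fell, or 26.3% against 8.19% of all genes. They had 0 that rose and a median of -0.32. Dihydrofolate reductase, dhfr, averaged 6.94 ± 1.99 CPM at 37.5 nM and 16.2 ± 7.42 CPM at 3.75 nM, a log2 difference of -1.15 ± 0.26 with an edgeR adjusted p of 0.0107. The methionine synthase MTR and its reductase MTRR fell by 0.87 and 0.55, and a row of the cytosolic MTHFD1 (ENSDARG00000040492) by 0.60. Another row with that symbol (ENSDARG00000018266) had a log2 difference of 0.07 and was not called. Between the series at 3.75 nM, 3 of 20 genes of this list were called, all higher in the lower-numbered fish, where 6.66% of all genes were. Their median log2 difference over the 20 genes was 0.36, with the largest at 1.13 for dhfr. For MTR it was 0.16, with an edgeR adjusted p of 0.748. The count was 1 without the libraries over 5000 CPM of intestine markers.

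Among 24 genes of sestrin and amino acid signalling to mTORC1, 2 rose, 2 fell, and the median was 0.13. In each direction that is 8.33% of the list, against 3.19% of all genes that rose and 8.19% that fell. WDR59, of the GATOR2 complex that sestrin 2 binds, averaged 3.66 ± 0.806 CPM at 37.5 nM and 2.15 ± 0.707 CPM at 3.75 nM, a log2 difference of 0.79 ± 0.21 with an edgeR adjusted p of 0.0235. The mTORC1 inhibitor akt1s1 averaged 75.8 ± 11.8 CPM and 44.6 ± 19.3 CPM in the same groups, with 0.79 ± 0.23 and 0.0325. SEC13 and SEH1L, which serve both GATOR2 and the nuclear pore, fell by 0.80 and 0.50. The count of 4 was 1 without fish 163, 166 or 167.

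With age edgeR called 7 of the 136 distinct list genes tested, or 5.15%, against 1.72% of all genes. MARS1 averaged 9.40 ± 1.79 CPM in 3-year fish (n = 6) and 18.4 ± 4.02 CPM in 1-year fish at 37.5 nM (n = 9), and fell by 1.0 on the log2 scale with an edgeR adjusted p of 0.00806. It was the only cytosolic synthetase called of 20, and the median of that list was 0.05. GPT2, the mitochondrial alanine aminotransferase, averaged 2.72 ± 1.14 CPM in 3-year fish and 7.27 ± 1.91 CPM in 1-year fish, and fell by 1.46. In the folate list the same MTHFD1 row rose, with 297 ± 31.8 CPM in 3-year fish and 194 ± 35.9 CPM in 1-year fish at 37.5 nM, a log2 difference of 0.59 ± 0.13 with an edgeR adjusted p of 0.0268. MLST8, an mTORC1 subunit, rose by 0.63, the Rag GTPase gene rragca fell by 0.48 and dele1, which relays mitochondrial stress to the eIF2 alpha kinase HRI in human cells, fell by 0.44. A row named SLC25A32, after the mitochondrial folate carrier and sharing its symbol with another row, rose by 1.27 with an adjusted p of 0.0491.

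With 1 fish left out at a time, the age counts ranged from 0 to 2 in the folate list, 0 to 2 in the sestrin list and 0 to 1 in the eIF2 alpha list. Without the libraries rich in intestine markers, or without those rich in pancreas markers, the folate and eIF2 alpha lists had 0 calls for age.

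Of 19 stress effectors tested for age, edgeR called 0, and 6 had an unadjusted p under 0.05, against 18.8% of all genes. DESeq2 called 3 of them, against 7.4% of all genes. The log2 difference was negative in 15 of the 19, and their median was -0.51, against 0.00 over all genes tested. The pro-apoptotic factor DDIT3, also known as CHOP, had -0.64 with an edgeR adjusted p of 0.0974. The glutathione-degrading enzyme CHAC1 had -1.31 with 0.169, and the autophagy receptor SQSTM1 had -0.73 with 0.124. These 3 genes were named after their values were seen. In the mitochondrial synthetase list 0 of 16 were called by edgeR for age and 1 by DESeq2, with 3 at an unadjusted p under 0.05 and a median of 0.13.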

How the data were processed

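The authors deposited raw read counts per gene in 2 tables. Per the submitters' processing notes, CASAVA 1.8.2, STAR 2.4.1d, featureCounts 1.4.6-p4 and the build GRCz10 were used. Libraries were made with the TruSeq RNA v2 kit, per the labels' protocols, and whether counting used strand is not given in the sources used here. Files named for RPKM were not used. The 24 count columns, all mapped to fish by number, were joined on gene identifier, and 0 sample columns were unused.

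Counts were filtered with filterByExpr, scaled with TMM and tested with edgeR 4.0.16 (quasi-likelihood F test, two-sided) in R 4.3.3, with Benjamini-Hochberg adjustment over all genes tested and a threshold of 0.05. Each SE was taken from the log2 change and its F value. The step was tested on simulated data. log2 CPM used a prior count of 2. Alternatives were RLE, upper-quartile and library-size scaling, no filter, DESeq2 1.42.0, the number series as a covariate or alone, and each fish left out. Leaving out libraries rich in intestine or pancreas markers was added after seeing the data.

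The 5 genes and the lists were chosen with earlier results of these data known. Of 137 pathway list entries, 131 matched a gene row by symbol or synonym. Up to 4 genes per list with a mean of at least 1 CPM were named by the lowest dose p-value, and 3 genes per member by r. Some genes that the rule picks are not reported here. Others named passed a threshold or are said to be chosen afterwards. The reference gene table is of another build, so no coordinates are given.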

Additional observations from a re-analysis of the deposited data

Results flagged for a closer look

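Within the 3-year fish at 37.5 nM, LARS1 was at 27.1 CPM in fish 181, and the other 5 fish lay between 12.9 and 16.5 CPM. The gap to the next fish was large for a group of 6. It was the 1 case found in 15 groups of fish examined for a value set apart. Chance gives about 1 such case in 20 groups, so 1 case in 15 groups is near what chance gives. Fish 181 was also 1 of only 2 lower-numbered fish in this group.

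The dose difference of LARS1 was larger in the lower-numbered than in the higher-numbered 1-year fish, by -0.80 on the log2 scale, in the interaction test of edgeR. The smallest sets behind it are 4 fish per dose in the lower-numbered series and 5 in the higher-numbered series. The edgeR adjusted p was 0.0486, and the call was lost when any of 12 of the 18 fish was left out. Dose differences of the same fish may have entered the choice of the genes, so nothing is read from this call.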

How the results depend on the processing

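In all fits listed, the members' dose differences of ALDH1L2, TARS1, LARS1 and sesn2 were below 0. The number of genes called for dose, 1760 in the report, was 1131 with no filter, 2706 with DESeq2, 5291 and 0 in the lower-numbered and higher-numbered series alone, 0 without pancreas-rich libraries and 909 to 2518 with 1 fish left out. In the higher-numbered series the dose difference was -1.21 for ALDH1L2 and -0.76 for LARS1. For age, 278 became 530 with series as a covariate, 13 and 30 within the series, 88 without pancreas-rich libraries, 1196 with DESeq2 and 115 to 559 with 1 fish left out. For the interaction, 1089 became 680 with no filter, 52 without intestine-rich and 1 without pancreas-rich libraries, 2055 with DESeq2 and 516 to 2048 with 1 fish left out. For series at 3.75 nM, 1885 became 919, 7, 0, 3541 and 17 to 3512 under the same settings. For series at 37.5 nM, 5 became 18 with library size, 11 with upper-quartile scaling, 3 with no filter, 1 without pancreas-rich libraries, 1641 with DESeq2 and 0 to 72 with 1 fish left out.

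The interaction of LARS1 lost its call with library size (-0.87), upper-quartile scaling (-0.79), no filter (-0.88), and without intestine-rich (-0.68) or pancreas-rich libraries (-0.85), and ranged from -0.99 to -0.68 with 1 fish left out. That of ALDH1L2 was called by DESeq2 (-1.54) and without fish 189 (-1.89), and ranged from -1.89 to -1.29. At 3.75 nM the series difference of ALDH1L2 lost its call with library size (1.63) and without intestine-rich (1.5) or pancreas-rich libraries (1.67), ranging from 1.57 to 2.16. That of TARS1 did so at 1.08, 1.00 and 1.36 and with no filter (1.21), ranging from 1.01 to 1.36. That of LARS1 did so without intestine-rich (0.83) or pancreas-rich libraries (1.07), ranging from 0.85 to 1.04. That of sesn2 was called by DESeq2 (0.67) and by edgeR without fish 190 (0.80), and ranged from 0.59 to 0.80.

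Without pancreas-rich libraries 0 genes were called for dose in each of the 7 lists. Other dose counts, with the range with 1 fish left out, were as follows. Amino acid supply had 3 without intestine-rich libraries (3 to 6). Stress effectors had 2 with library size, 3 with series as a covariate and 3 with DESeq2 (1 to 3). The eIF2 alpha list had 6 with the covariate, 1 without intestine-rich libraries and 4 with DESeq2 (1 to 4). Cytosolic synthetases had 5 to 12. Mitochondrial synthetases had 1 with upper-quartile scaling and 6 with DESeq2 (1 to 5). Folate enzymes had 1 without intestine-rich libraries, and the sestrin list 7 with DESeq2 (1 to 6). For age, DESeq2 called 4, 3, 1 and 4 genes of amino acid supply, stress effectors, mitochondrial synthetases and the sestrin list (1 to 2, 0 to 1, 0 and 0 to 2 with 1 fish left out). The eIF2 alpha list had 0 for age with library size, with upper-quartile scaling and without either set of libraries (0 to 1). Folate enzymes had 1 with library size and 0 without either set (0 to 2), cytosolic synthetases 1 to 2, and the sestrin list 0 with library size, 1 with upper-quartile scaling, 1 without intestine-rich and 0 without pancreas-rich libraries. The causes were not tested.

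ALDH1L2 and sesn2 had 20 and 41 counts in their lowest library, which limits the precision of their levels. No paired analysis was possible because each fish is its own library and its number is in 1 group.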

Other observations

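Within the fish at 3.75 nM, the sestrin and mTORC1 list did not follow ALDH1L2, TARS1 and LARS1. Of its 24 genes, 2 were higher and 5 lower in the lower-numbered than in the higher-numbered fish (edgeR adjusted p below the threshold of 0.05), with a median of -0.20. Over all 15842 genes tested there, 1055 were higher and 830 lower. FLCN, folliculin, which acts on the Rag GTPases, was lower there by -1.76 on the log2 scale, with an edgeR adjusted p of 0.0203, and SESN1, a relative of sesn2, by -1.60, with 0.0285. The interaction of dose and series was called for 5 of the 24 genes of that list, each with a positive sign: WDR59, WDR24, akt1s1, DEPDC5 and FLCN. Over all 17217 genes tested for it 1089 were called, 786 with a positive sign. Without intestine-rich libraries 52 genes were called in all, and without pancreas-rich libraries 1. Among genes of eIF2 alpha signalling, 4 of 17 were higher in the lower-numbered fish at 3.75 nM and 0 were lower. These were the eIF2B subunits EIF2B2, EIF2B3 and EIF2B4 and the eIF2 subunit EIF2S2, with log2 differences of 0.59, 1.4, 0.75 and 0.61.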
